A study of Mus musculus with 10 samples.

Results

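The nuclear receptors and liver transcription factors examined here are 40 genes, 28 nuclear receptors and 12 other factors, among 27670 genes on the array. They were chosen by name, with earlier results of these data known. Every non-control probe named as one of the 40 was taken, with names assigned from RefSeq tables by accession, then symbol, then older synonym. This gave 68 probes. Of the 40 genes, 37 had a probe well above background in the liver channel on at least 4 of the 10 arrays and were tested among 18921 genes. The other 3 were Nr2f1, Rara and Foxo3 (listed as Foxo3a). The Nr2f1 probe was not well above background on any of the 10 arrays, the Rara probe was so on 1 KO array, and the better of 2 Foxo3 probes was so on 1 KO and 1 WT array.

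RNA came from the livers of GCGR KO mice, homozygous for loss of the glucagon receptor gene Gcgr (3 females and 2 males), and of wild-type (WT) mice (2 females and 3 males). The series' design text gives 5 separate mice per genotype. The part of the gene deleted, the strain, the age, the feeding state and the time of day at sampling are not given in the labels. Each liver's RNA, labelled with Cy5, was hybridised beside Cy3-labelled Universal mouse reference RNA, a pool that all 10 arrays share, and each value below is a log2 ratio of liver over that pool.

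Nuclear receptors are transcription factors that bind small lipid-soluble molecules, such as steroids, retinoic acid, bile acids and fatty acids, and switch genes on or off according to what is bound. Many work as pairs with a retinoid X receptor. In hepatocytes they act beside a set of factors that hold the liver programme in place, among them HNF4A, the FOXA proteins, the C/EBP proteins, ONECUT1 and PROX1. Glucagon, the fasting hormone, acts on hepatocytes through its receptor and cyclic AMP, and several of these factors are known to take part in the fasting response.

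Gcgr itself averaged 0.32 ± 0.04 in KO livers and 7.99 ± 0.16 in WT livers (SD, 5 livers each). The change was -7.66 on the log2 scale (SE 0.08, limma adjusted p = 1.1e-13), and every liver matched its genotype label. Median net Cy5 signal was 112 to 134 on the 6 arrays of slides 1 and 2 and 58.7 to 78.9 on the 4 arrays of slides 3 and 4. Each group spans several slides. Female KO livers lay on slides 1 and 2 and female WT livers on slide 3, so among females slide and genotype cannot be told apart. Slide 2 held only KO livers and slide 4 only WT 5. A fit with slide as a fixed block therefore compares the genotypes within slides 1 and 3 alone. On slide 3 the KO liver was male and both WT livers were female. The mean log2 ratio of 8 tested hepatocyte markers was 7.03 to 7.16 in KO livers and 6.92 to 7.56 in WT livers, and 1 of them (Ass1) was lower in KO livers. Of the 12 endothelial markers 3 passed the test, all of them higher in KO livers (Lyve1 1.47, Ramp2 0.37 and Pecam1 0.26 on the log2 scale), though Pecam1 did not with slide as a fixed block (adjusted p = 0.102). Their list mean was 3.20 to 3.39 in KO livers and 2.65 to 3.07 in WT livers. The mean of 7 bile duct markers was -1.97 to -1.80 in KO livers and -2.32 to -1.98 in WT livers, with no marker passing. Of the macrophage (12 tested), stellate (11), erythroid (3) and pancreatic acinar (5) markers none passed, and 1 of 12 lymphocyte markers was higher. In whole liver, fewer cells of a type and less RNA per cell cannot be told apart, and the part of these markers in the results below was not tested.

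Of the 37 genes tested, Foxa1 rose in KO livers, and Nr5a2, Klf15, Esr1 and Rxrg fell. Each was past an adjusted p of 0.05 in limma, fitted across all genes with genotype and sex and adjusted by Benjamini-Hochberg. These 5 of 37 are 13.5% of the members, against a background of 5.96% of all genes tested (2.88% higher and 3.08% lower). Foxa1 changed most, at 1.82-fold, and the 4 falls were 1.30-fold to 1.47-fold. By unadjusted p under 0.05 the count was 15 of 37, or 40.5%, against 20.9% of all genes. The median log2 fold change was -0.09 over the members and -0.0028 over all genes tested, and the median absolute change was 0.19 over the members and 0.10 over all genes. The number of members that pass depends strongly on processing: it was 0 with median centring in place of loess, 0 with outlier spots removed after the background fit, and 3 with slide as a fixed block, where Esr1, Cebpd and Hnf4g passed. It was 0 without WT 3, 1 without KO 1 or without KO 4, 2 without KO 2 or without WT 4, and 3 without KO 3.

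**Figure D1:**
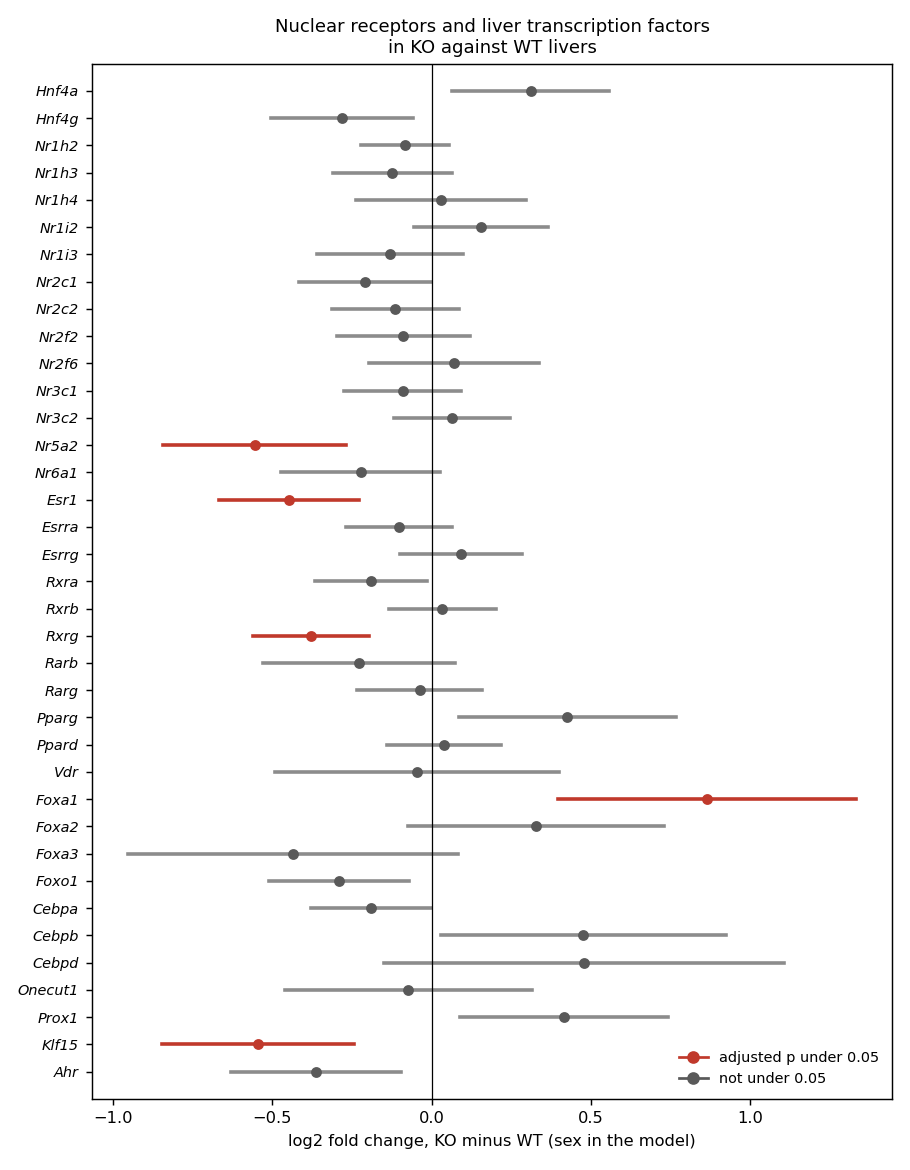
Log2 fold change (KO minus WT, sex in the model) of the 37 tested genes, grouped by family down the page, with points for the estimate and lines for the 95% interval. Red marks the 5 genes past the threshold, Foxa1 at 0.86 on the right of 0 and Nr5a2, Esr1, Rxrg and Klf15 between -0.55 and -0.38 on its left.

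Foxa1 encodes a pioneer factor of the forkhead family, able to bind closed chromatin at liver enhancers. Its probe lies at chr12:55476083-55476142 in the coordinates of the array files, whose header names build mm7. The log2 ratios in KO livers 1 to 5 were 2.40, 1.60, 1.44, 1.46 and 1.91, and those in WT livers 1 to 5 were 1.77, 0.96, 1.03, 0.68 and 0.49. WT 1, a male, lay among the KO livers, so the groups overlapped. Within females and within males every KO liver was above every WT liver of its sex. The highest values were in KO 1 and KO 5, the male KO livers, where the mean of the 5 tested adipocyte markers was 3.19 and 2.65, against 0.88 to 1.08 in the other KO livers and 0.84 to 1.19 in WT livers. The part of these markers in the Foxa1 result was not tested. The Foxa1 change was 0.86 on the log2 scale, with an SE of 0.21 and an adjusted p of 0.0371 in limma, or 1.82-fold. With slide as a fixed block it was 0.76 (adjusted p = 0.0534), and within slides 1 and 3 it was 0.63 and 1.06. Both within-slide values mix the sexes. Slide 1 had a male and a female KO liver against male WT livers, and slide 3 a male KO liver against female WT livers. Between males of slide 1 the change was 1.03. Without the 2 male KO livers it was 0.65 (adjusted p = 0.262). That value compares females alone, where slide and genotype cannot be told apart. Of 25 alternative settings, 10 of which leave out 1 liver, 9 kept the call, with changes of 0.65 to 1.03 over all 25. It was kept without WT 1 (adjusted p = 0.0114) or without WT 5 (adjusted p = 0.0321), and lost without any other single liver (adjusted p = 0.0528 to 0.121).

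The related factors Foxa2 and Foxa3 did not pass. Foxa2 had a log2 fold change of 0.33 (SE 0.18) and Foxa3 one of -0.44 (SE 0.24), so the estimates of these family members ran in opposite directions. Differences between the family members were not tested. The 250 bases before the RefSeq start of Foxa1 (GRCm38.p6, chr12:57546112-57546361, minus strand) are printed because Foxa1 was the one member that rose. They hold the letters that forkhead proteins prefer, TGTTTAC, once, on the opposite strand, shown in capitals at bases 110 to 116.
Foxa1: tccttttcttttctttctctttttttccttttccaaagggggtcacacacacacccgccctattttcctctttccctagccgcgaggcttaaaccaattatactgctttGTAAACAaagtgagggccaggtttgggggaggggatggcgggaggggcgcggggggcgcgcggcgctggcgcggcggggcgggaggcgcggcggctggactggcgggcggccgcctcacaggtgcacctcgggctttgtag
Of all 32851 promoter entries of the same length 3.17% held these letters on either strand, as did 3 of the 57 entries of the 36 members with one (Foxa1, Rxrb and Nr2f1). A match of letters is a description and not a binding site.

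Nr5a2, also called LRH-1, is a receptor that binds phospholipids and drives bile acid synthesis genes such as Cyp8b1 together with other receptors. Its probe lies at chr1:136732418-136732477 (mm7). KO livers 1 to 5 had log2 ratios of 4.42, 4.35, 4.84, 4.43 and 4.74, and WT livers 1 to 5 had 4.91, 5.11, 5.48, 4.95 and 5.05. Every KO liver was below every WT liver. Nr5a2 was the only one of the 37 members whose genotypes did not overlap, which is 2.7% of them, against 6.05% of all genes with a value in every liver. The change was -0.55 on the log2 scale, with an SE of 0.13 and an adjusted p of 0.0309 in limma, or 1.47-fold. With slide as a fixed block it was -0.57 (adjusted p = 0.0563), and within slides 1 and 3 it was -0.62 and -0.47, values that mix the sexes as for Foxa1. Between males of slide 1 it was -0.58. Alternatives kept the call in 13 of 25 settings. It was lost without KO 1, KO 2, KO 4, WT 2 or WT 3, with adjusted p-values of 0.0991, 0.0631, 0.0739, 0.0594 and 0.0956 in that order.

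Klf15 encodes a zinc finger factor that drives amino acid breakdown and gluconeogenesis in fasting and whose level follows the clock and glucocorticoids. KO livers 1 to 5 had log2 ratios of 6.04, 6.11, 6.07, 5.73 and 6.41, and WT livers 1 to 5 had 6.76, 6.35, 6.69, 6.86 and 6.42. Only KO 5, a male, reached into the WT range. The change was -0.54 on the log2 scale, with an SE of 0.14 and an adjusted p of 0.0404 in limma, or 1.46-fold. A second Klf15 probe gave -0.71 (SE 0.10, adjusted p over all probes 0.0028). There KO livers were at 2.39 to 2.89 and WT livers at 3.13 to 3.46, with no overlap. In females, where slide and genotype cannot be told apart, the KO effect was -0.80 (SE 0.17, adjusted p = 0.0248). In males it was -0.28 (SE 0.17, adjusted p = 0.422), and the test of the difference gave an adjusted p of 0.397. With slide as a fixed block the change was -0.43 (adjusted p = 0.0799). Within slides 1 and 3 it was -0.48 and -0.36, values that mix the sexes as for Foxa1. Between males of slide 1 it was -0.51. The call was kept in 11 of 25 alternative settings. Among single livers left out, it was kept without KO 5, WT 2 or WT 5 (adjusted p = 0.0132, 0.0324 and 0.0387) and lost without any other (adjusted p = 0.071 to 0.12).

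The Klf15 promoter (GRCm38.p6, chr6:90462326-90462575, plus strand) is printed because Klf15 fell and its level is known to follow the clock, whose activators CLOCK and BMAL1 bind the E-box CACGTG. The 250 bases before its RefSeq start hold that palindrome at bases 23 to 28 and again at bases 79 to 84, in capitals.
Klf15: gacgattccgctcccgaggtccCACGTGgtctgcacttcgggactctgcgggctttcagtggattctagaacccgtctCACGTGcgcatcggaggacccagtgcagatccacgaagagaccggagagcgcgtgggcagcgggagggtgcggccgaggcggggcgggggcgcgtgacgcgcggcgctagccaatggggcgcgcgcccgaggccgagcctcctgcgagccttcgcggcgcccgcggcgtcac
The E-box was in 6.02% of all promoter entries and in 4 of the 57 member entries (Klf15, Nr1i3, Onecut1 and Rara). The clock repressor Nr1d1, from the list of other nuclear receptors, also fell in KO livers, by 0.47 on the log2 scale (SE 0.12, adjusted p = 0.0441). It was -0.55 with slide as a fixed block, and did not pass (adjusted p = 0.0527). KO livers were at 0.10 to 0.51 and WT livers at 0.35 to 0.91. Other clock genes of the lists did not pass: Nr1d2 (-0.21, SE 0.17), Dbp (-0.63, SE 0.35), Tef (-0.17, SE 0.20), Hlf (-0.10, SE 0.07) and Nfil3 (0.29, SE 0.31). The part of the clock in the Klf15 change was not tested, and the time of sampling is not given.

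Esr1 encodes oestrogen receptor alpha, which in liver mediates responses of lipid metabolism to oestrogen. Its level differed so much by sex that the genotypes overlapped when sexes were pooled. In females the log2 ratios were 2.09, 2.45 and 2.41 in KO livers 2, 3 and 4, against 2.89 and 2.80 in WT livers 3 and 4. In males they were 0.88 and 0.88 in KO livers 1 and 5, against 1.28, 1.02 and 1.45 in WT livers 1, 2 and 5. Within each sex every KO liver lay below every WT liver. With sex in the model the change was -0.45 on the log2 scale (SE 0.10, adjusted p = 0.0247 in limma), or 1.36-fold, and with no sex term it was -0.14 (adjusted p = 0.904). With slide as a fixed block it was -0.44 (adjusted p = 0.0342). The plain KO minus WT difference was 0.34 within slide 1, where the KO arrays include a female and the WT arrays do not, and -1.96 within slide 3, where the KO liver is male and both WT livers are female. Between males of slide 1 it was -0.26. The call was kept in 16 of 25 alternative settings, and was lost without KO 1 (adjusted p = 0.0625), WT 3 (0.089) or WT 4 (0.054).

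Rxrg encodes retinoid X receptor gamma, a partner of other nuclear receptors. In females its log2 ratios were 4.31, 4.11 and 4.13 in KO livers 2, 3 and 4, against 4.67 and 4.57 in WT livers 3 and 4. In males they were 3.34 and 3.03 in KO livers 1 and 5, against 3.42, 3.46 and 3.62 in WT livers 1, 2 and 5. Here too each KO liver was below each WT liver of its sex. The change was -0.38 on the log2 scale (SE 0.08, adjusted p = 0.0218 in limma), or 1.30-fold, and -0.17 with no sex term (adjusted p = 0.833). It was -0.29 with slide as a fixed block (adjusted p = 0.0842), 0.38 within slide 1 and -1.59 within slide 3, which mix the sexes as above, and -0.11 between males of slide 1. The call was kept in 13 of 25 alternative settings, and was lost without KO 4 (adjusted p = 0.0575), KO 5 (0.0602) or WT 3 (0.0795). The other retinoid X receptors did not pass: Rxra had -0.19 (SE 0.08, adjusted p = 0.200) and Rxrb 0.03 (SE 0.08).

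Counting livers within each sex, 6 of the 37 members had KO and WT livers apart in the same direction in both females and males, which is 16.2% of them, against 11.3% of all genes (5.42% higher and 5.86% lower). Foxa1 was higher, and Nr5a2, Esr1, Rxrg, Rxra and Hnf4g were lower. Among females slide and genotype cannot be told apart. Klf15 was not among them, because KO 5 and WT 2 overlapped in males at the brighter probe, though not at the second probe.

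**Figure D2:**
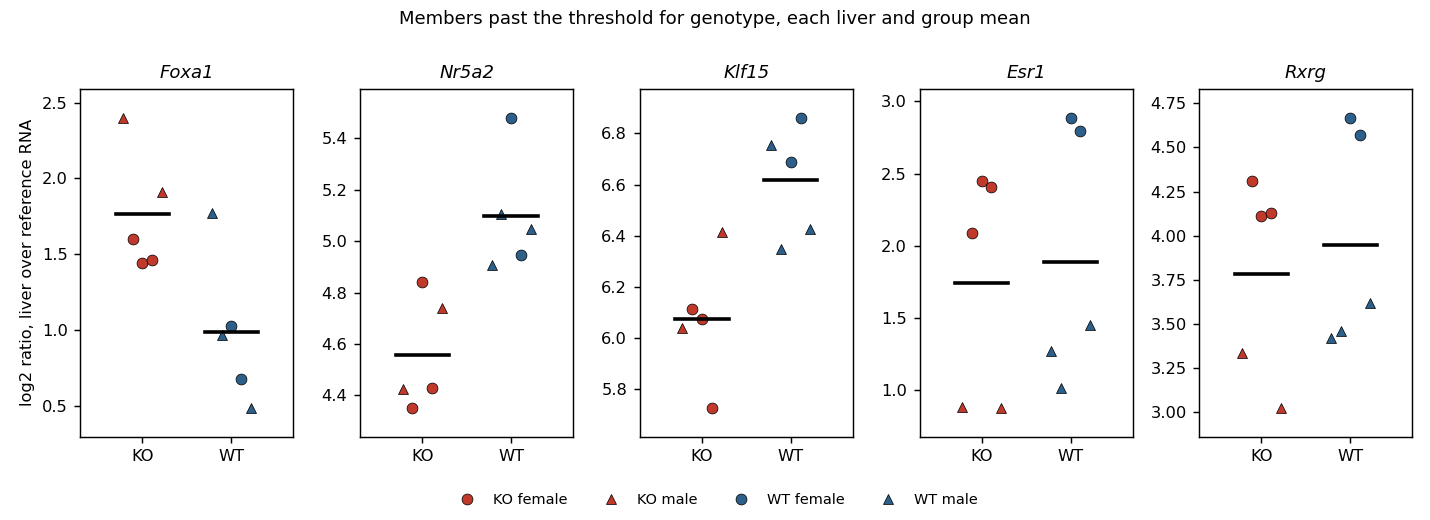
Log2 ratio of liver over reference RNA for the 5 genes past the threshold for genotype, 1 panel per gene, with KO livers on the left and WT livers on the right. Circles are females, triangles are males and lines are group means. Nr5a2 does not overlap between genotypes, while Esr1 and Rxrg separate by sex first and by genotype within each sex.

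The remaining 32 tested members did not pass, with log2 fold changes of -0.44 to 0.48. Half-widths of their 95% intervals ran from 0.14 to 0.63, so a change of the size of those that passed would fall within the intervals of the more variable genes. Intervals of 10 of the 32 left out 0 before adjustment.

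HNF4A, the receptor most central to hepatocyte identity, had an estimate of 0.31 (SE 0.11, adjusted p = 0.133) for its gene, with KO livers at 6.34 to 6.63 and WT livers at 5.79 to 6.42. Other Hnf4a probes gave 0.32 (SE 0.11) and -0.03 (SE 0.08), and neither passed. Its relative Hnf4g had -0.28 (SE 0.10, adjusted p = 0.135), and -0.43 with slide as a fixed block (adjusted p = 0.0124), where it passed. Within slides 1 and 3 the Hnf4g change was -0.64 and -0.03, values that mix the sexes as for Foxa1.

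The 8 sensors of lipids, bile acids, foreign compounds and vitamin D had changes of -0.13 to 0.43, and none passed. The bile acid receptor FXR (Nr1h4) stood at 0.03 (SE 0.12, 95% interval -0.24 to 0.30). The oxysterol receptors LXR beta (Nr1h2) and LXR alpha (Nr1h3) stood at -0.08 (SE 0.06) and -0.12 (SE 0.08), and the drug receptors PXR (Nr1i2) and CAR (Nr1i3) at 0.15 (SE 0.10) and -0.13 (SE 0.10). Pparg, the fat storage receptor, had the largest estimate of the 8, at 0.43 (SE 0.16, adjusted p = 0.139), with 1.35 to 2.26 in KO livers and 0.89 to 1.81 in WT livers. The highest Pparg value was in KO 1, a male. The adipocyte marker list had a mean of 3.19 in KO 1 and 2.65 in KO 5, the male KO livers, and 0.88 to 1.08 in the female KO livers, against 0.84 to 1.19 in WT livers. 1 of its 5 tested markers passed (Cidec, higher in KO livers), and the part of these genes in the Pparg value was not tested. Ppard stood at 0.04 (SE 0.08). Vdr, the vitamin D receptor, was well above background on 3 KO and 1 WT arrays, which is the fewest that the filter allows, and had -0.05 (SE 0.20).

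The 5 tested orphan receptors of the NR2 and NR6 families, Nr2c1, Nr2c2, Nr2f2, Nr2f6 and Nr6a1, had changes of -0.22 to 0.07. The glucocorticoid receptor Nr3c1 had -0.09 (SE 0.08, 95% interval -0.27 to 0.09) and the mineralocorticoid receptor Nr3c2 had 0.06 (SE 0.08). Among oestrogen-related receptors, which act in mitochondrial metabolism, Esrra had -0.10 (SE 0.08) and Esrrg 0.09 (SE 0.09). A second Esrra probe gave -0.29 (SE 0.09, limma adjusted p over all probes 0.0771) and did not pass. The probes of Esrrg disagreed. A second, dimmer one, well above background in 2 of 5 KO and 4 of 5 WT livers, gave -0.49 (SE 0.09, limma adjusted p over all probes 0.0085), with KO livers at 0.05 to 0.75 and WT livers at 0.66 to 1.02, so the direction for Esrrg is not settled by these arrays. The retinoic acid receptors Rarb and Rarg had -0.23 (SE 0.14) and -0.04 (SE 0.09).

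Outside the nuclear receptors, the C/EBP factors, leucine zipper proteins of liver metabolism and the acute phase response, did not pass: Cebpa had -0.19 (SE 0.09), Cebpb 0.48 (SE 0.20) and Cebpd 0.48 (SE 0.29). Onecut1 (HNF6) had -0.07 (SE 0.18), or 0.31 (SE 0.25) at a second probe, Prox1, a homeobox factor, 0.42 (SE 0.15, adjusted p = 0.131), and Ahr, the dioxin receptor, -0.36 (SE 0.12, adjusted p = 0.109).

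No member passed the test of whether the KO effect differs between the sexes, where 0.0317% of all genes did. At unadjusted p under 0.05 there were 6 of the 37 members, or 16.2%, against 12.5% of all genes. The values of 4 members are given because their livers were uneven, and they were chosen after their values were seen.

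Foxo1, the insulin-restrained forkhead factor of gluconeogenesis, had log2 ratios of 0.15, 0.18 and 0.10 in female KO livers 2, 3 and 4, against 0.72 and 0.67 in female WT livers 3 and 4. Male livers had 0.18 and 0.38 in KO livers 1 and 5, against 0.29, 0.27 and 0.37 in WT livers 1, 2 and 5. Only the female groups did not overlap, and among females slide and genotype cannot be told apart. The KO effect was -0.55 in females (SE 0.09, limma adjusted p = 0.0101) and -0.03 in males (SE 0.09, adjusted p = 0.909), with an adjusted p of 0.212 for the difference between them.

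Cebpd moved the other way. Male livers had -2.31 and -1.20 in KO livers 1 and 5, against -2.95, -3.28 and -2.71 in WT livers 1, 2 and 5. Female livers had -2.85, -2.77 and -2.87 in KO livers 2, 3 and 4, against -2.68 and -2.45 in WT livers 3 and 4. The KO effect was 1.22 in males (SE 0.27, limma adjusted p = 0.0423) and -0.27 in females (SE 0.27, adjusted p = 0.631). The difference between the sexes was -1.49 (SE 0.38, adjusted p = 0.212). Without KO 1 that difference was -2.05 (adjusted p = 0.0134), resting on KO 5 as the one male KO liver. In the fit with genotype and sex the KO effect was 0.48 (limma adjusted p = 0.383). It was 0.81 with slide as a fixed block (adjusted p = 0.0036). No slide held both KO and WT females, so that value does not compare the genotypes of females within a slide.

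Cebpb was also highest in KO 5, at 1.41, with 0.40 to 0.81 in the other KO livers and -0.11 to 0.69 in WT livers. Its KO effect was 0.91 in males (SE 0.23, limma adjusted p = 0.0705) and 0.04 in females (SE 0.23, adjusted p = 0.946), with an adjusted p of 0.342 for the difference. Foxa3, at 3.93, was highest in KO 5 as well, with 2.37 to 2.68 in the other KO livers and 3.19 to 3.86 in WT livers. Apart from KO 5, each KO liver was below each WT liver. The neutrophil marker mean, over 3 tested markers of which none passed, was 2.0003 in KO 5, 0.25 to 0.79 in the other KO livers and -0.04 to 0.49 in WT livers. Its part in the KO 5 values was not tested.

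**Figure D3:**
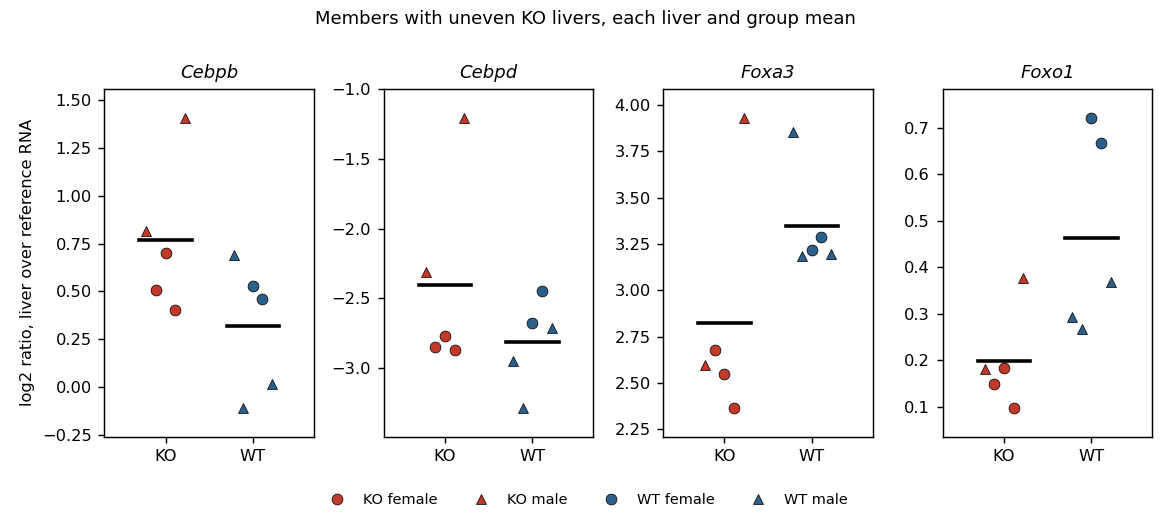
Log2 ratio of liver over reference RNA for Cebpb, Cebpd, Foxa3 and Foxo1, with KO livers on the left and WT livers on the right, circles for females, triangles for males and lines for group means. A male KO triangle (KO 5) stands at the top for Cebpb, Cebpd and Foxa3, at 1.41, -1.20 and 3.93, and female WT circles stand at the top for Foxo1.

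The sexes differed in 5 receptors, of which Esr1 and Rxrg also differed by genotype. In the same model 5 of the 37 members passed for female minus male, or 13.5%, against 11.5% of all genes (4.99% higher and 6.55% lower in females). Esr1, Rxrg, Rarb and Nr1i3 were higher in females, and Esrra was lower. All 5 are nuclear receptors, and none of the 11 other factors tested passed.

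Esr1 averaged 2.53 ± 0.32 in females and 1.10 ± 0.25 in males (SD, 5 livers each). The difference was 1.51 on the log2 scale (SE 0.10, adjusted p = 4.82e-06 in limma), or 2.85-fold. Every female, given liver by liver above, was above every male. It passed in all 23 alternative settings, with differences of 1.34 to 1.75, and stood at 1.41 with slide as a fixed block. On slide 1 the female KO 2 exceeded the male KO 1 by 1.20.

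Rxrg averaged 4.36 ± 0.25 in females and 3.37 ± 0.22 in males (SD, 5 livers each). The difference was 1.06 (SE 0.08, adjusted p = 1.73e-05 in limma), or 2.08-fold. The sexes did not overlap. It passed in 22 of 23 alternative settings, and stood at 1.19 with slide as a fixed block. The female KO 2 exceeded male KO 1 by 0.97 on slide 1.

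Rarb encodes retinoic acid receptor beta, whose own gene is a classic target of retinoic acid receptors. Females had log2 ratios of 1.60, 2.08 and 2.16 in KO livers 2, 3 and 4 and 2.16 and 2.24 in WT livers 3 and 4. Males had 1.20 and 0.998 in KO livers 1 and 5 and 0.95, 1.33 and 1.61 in WT livers 1, 2 and 5. The male WT 5 reached just above the female KO 2. The difference was 0.88 (SE 0.14, limma adjusted p = 0.0016) or 1.83-fold, and 0.77 with slide as a fixed block (adjusted p = 0.0092). On slide 1 female KO 2 exceeded male KO 1 by 0.40. The call was kept in 21 of 23 alternative settings.

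The 250 bases before the RefSeq start of Rarb (GRCm38.p6, chr14:16575477-16575726, minus strand) are printed because they carry the known retinoic acid response element. It was searched on both strands as 2 copies of GTTCA in the same orientation with 6 bases between them, and stands in capitals at bases 199 to 214. The 3 motifs searched here do not overlap each other in these promoters.
Rarb: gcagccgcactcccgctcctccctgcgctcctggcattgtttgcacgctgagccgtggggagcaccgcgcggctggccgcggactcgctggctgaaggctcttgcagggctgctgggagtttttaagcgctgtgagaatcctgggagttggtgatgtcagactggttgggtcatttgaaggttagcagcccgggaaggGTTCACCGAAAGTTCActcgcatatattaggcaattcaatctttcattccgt
Of all promoter entries 22 of 32851 held the retinoic acid element, or 0.067%, and 1 of the 57 member entries. Of the 10 tested retinoic acid receptor targets none passed for genotype or for sex.

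Nr1i3 encodes CAR, the receptor behind induction of Cyp2b genes by drugs. Females had 4.70, 4.80 and 4.75 in KO livers 2, 3 and 4 and 4.89 and 4.72 in WT livers 3 and 4. Males had 4.48 and 3.96 in KO livers 1 and 5 and 4.51, 4.23 and 4.52 in WT livers 1, 2 and 5. The sexes did not overlap. The difference was 0.46 (SE 0.10, limma adjusted p = 0.0152) or 1.38-fold, and 0.54 with slide as a fixed block (adjusted p = 0.0265). On slide 1 female KO 2 exceeded male KO 1 by 0.22. The call was kept in 17 of 23 alternative settings.

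Esrra had 0.14, -0.11 and -0.10 in female KO livers 2, 3 and 4 and 0.10 and -0.02 in female WT livers 3 and 4. Males had 0.27 and 0.15 in KO livers 1 and 5 and 0.25, 0.43 and 0.38 in WT livers 1, 2 and 5. The sexes did not overlap, by a small margin. The difference was -0.27 (SE 0.08, limma adjusted p = 0.0403) or 1.21-fold, and a second probe gave -0.05 (SE 0.09), which did not pass. The brighter probe gave -0.15 with slide as a fixed block (adjusted p = 0.31), and 6 of 23 alternative settings kept the call. It was kept without KO 2, KO 5 or WT 1 (adjusted p = 0.0214, 0.0452 and 0.0467) and lost without any other single liver, up to an adjusted p of 0.116. Of the 37 members 4 did not overlap between the sexes, or 10.8%, against 9.25% of all genes.

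**Figure D4:**
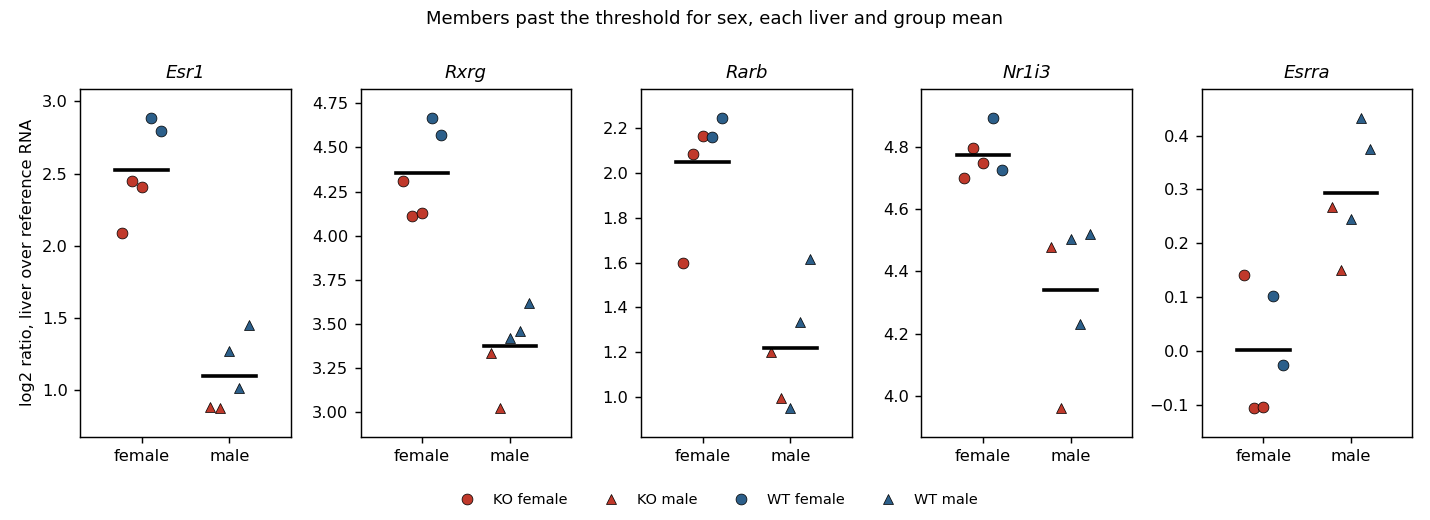
Log2 ratio of liver over reference RNA for the 5 genes past the threshold for sex, with females on the left and males on the right. Circles are females, triangles are males, red is KO, blue is WT, and lines are means. Esr1 and Rxrg show the widest gaps, 1.51 and 1.06 in the model.

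Known targets of these factors were counted from lists, against 2.88% of all genes higher and 3.08% lower in KO livers. The counts do not separate targets that a factor raises from those it represses. The lists were chosen with earlier results of these data known, so the counts are not independent support. For bile acid receptor FXR, 3 of 14 targets were higher and 1 was lower. Slc51b, a bile acid exporter subunit, rose by 1.21 (SE 0.14), Pltp, the phospholipid transfer protein, by 1.43 (SE 0.32) and Scarb1, the HDL receptor, by 0.46 (SE 0.06). Cyp8b1, the enzyme of cholic acid synthesis and also a known Nr5a2 target, fell by 1.03 (SE 0.20, limma adjusted p = 0.014). KO livers 1 to 5 had Cyp8b1 log2 ratios of 5.19, 3.89, 3.62, 4.20 and 4.38, against 5.64, 6.06, 5.41, 4.46 and 5.73 in WT livers 1 to 5. Only KO 1 and WT 4 placed the groups in overlap.

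For LXR, 2 of 14 targets were higher (Pltp and the desaturase gene Scd1, 1.24, SE 0.19) and none lower, with a list median of 0.23. For CAR and PXR, 4 of 20 were higher, namely Akr1b7 (1.32, SE 0.18), Gadd45b (1.55, SE 0.31), Gstm1 (0.60, SE 0.10) and Abcc3 (0.36, SE 0.07), and 2 were lower. Their list median was 0.0002. For the PPARs, 4 of 20 were higher and none lower, with a list median of 0.35. They were the hormone gene Fgf21 (2.48, SE 0.20), the peroxisome gene Pex11a (1.06, SE 0.16), Vnn1 (1.45, SE 0.25) and the lipid droplet gene Cidec (1.40, SE 0.34), which also is the adipocyte marker that passed. Cidec was 3.99 in KO 1 and 3.21 in KO 5 and 0.96 to 1.46 in female KO livers, against 0.90 to 1.38 in WT livers.

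For the glucocorticoid receptor, 3 of 18 targets were lower, among them Sds (-1.44, SE 0.16), Tat (-0.63, SE 0.11) and Tdo2 (-0.45, SE 0.09), enzymes of amino acid breakdown. Of the same list 2 were higher, Gadd45b among them, and the list median was -0.44, or -0.11 with slide as a fixed block. The list mean was 1.46 to 2.16 in KO livers and 1.49 to 2.57 in WT livers, so the groups overlapped. For HNF4A, 3 of 18 were higher (Apoa4 1.15, SE 0.25, Mttp 0.40, SE 0.09, and Pklr 0.85, SE 0.20) and 1 was lower (Cyp8b1), with a median of -0.03. For FOXO factors, 2 of 16 were lower and none higher: Ppargc1a, the coactivator of gluconeogenesis, at -0.50 (SE 0.10) and G6pc, glucose-6-phosphatase, at -0.37 (SE 0.09). Their list median was 0.16. For AHR, 1 of 6 was higher (Nfe2l2, 0.38, SE 0.09) and none lower. Once slide was a fixed block, Ppargc1a (-0.42, adjusted p = 0.0512), G6pc (-0.31, adjusted p = 0.0972) and Nfe2l2 (0.41, adjusted p = 0.0563) did not pass.

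Among the other nuclear receptors none was higher, and the values of Nr1d1, which was lower, are given above. Of 30 other hepatic transcription factors 2 were higher and none lower, Cebpg (0.40, SE 0.07) and Klf10 (0.64, SE 0.14). Of 26 coregulators 1 was higher, the corepressor Nrip1 (0.56, SE 0.10), and 1 was lower, Ppargc1a, which did not pass with slide as a fixed block. Lists share genes, so their counts are not independent.

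**Figure D5:**
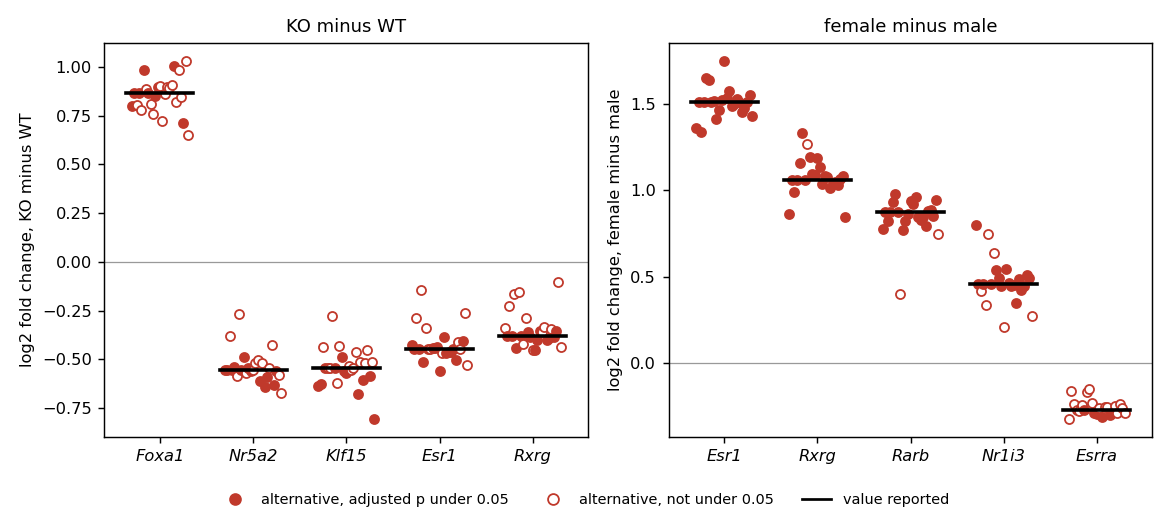
Log2 fold changes of the genes past the threshold, KO minus WT on the left (25 alternative settings) and female minus male on the right (23 settings). Each circle is 1 setting, filled where its adjusted p is under 0.05, and each line is the value reported. Every circle lies on the same side of 0 as its line, and Esr1 is filled in all settings for sex but in 16 of 25 for genotype.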

How the data were processed

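Liver RNA (Cy5) was set against reference RNA (Cy3) on Agilent design 014868 arrays with no dye swaps. Spots were quantified with Agilent Feature Extraction 10.7, per the submitters' processing notes, or 10.7.3.1 as the headers write it. The deposited spot signals used, a mean and a local background median per channel, are linear intensity values before any normalisation, per the file headers. The deposited LogRatio is a log10 value of processed Cy5 over Cy3, per the file headers. The value table by the authors holds log2 ratios, judged by setting each column against its own array (r of 0.9994 to 0.9996, column medians 0.0078 to 0.023). Its normalisation is not stated in the labels.

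Of 45018 spots per array, 169 to 291 with outlier flags were removed. Signals were corrected with normexp (offset 50), normalised by loess within arrays and averaged by probe. Kept probes were well above Cy5 background on 4 or more of 10 arrays, and each gene was represented by its brightest probe. Names came from RefSeq tables (GRCm38.p6) by accession for 22944 probes, symbol for 6664 and synonym for 3108, and 8458 kept the file's name. limma 3.58.1 (R 4.3.3, lmFit and eBayes) fitted genotype and sex over 18921 genes, with Benjamini-Hochberg adjustment and a threshold of 0.05. The KO effect per sex came from adding an interaction. The fit was tested on simulated data. The number of arrays limits the precision. Slides come from the array barcodes. The members and lists were chosen with earlier results of these data known. The rule gave values in every liver for members past the threshold or with an absolute log2 fold change of at least 0.5, and named at most the 4 genes of smallest adjusted p per list. The clock genes that did not pass were named outside this rule. Alternatives changed background correction, normalisation, filter, probe choice, covariates, slides and livers. RefSeq promoters were searched over the 250 bases before each start, found for 36 of the 40 members. 1 gene of the list of other nuclear receptors is not reported here.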

Additional observations from a re-analysis of the deposited data

Results flagged for a closer look

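Foxa3 stood apart in 1 liver of each group. In KO livers the highest log2 ratio, 3.93 in KO 5, lay far from the others, which ran from 2.37 to 2.68. In WT livers the highest, 3.86 in WT 1, lay far from the others at 3.19 to 3.29. These were 2 of 74 groups examined (37 members in 2 groups of 5), where chance gives about 1 in 20.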

How the results depend on the processing

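For KO minus WT, 5 members and 1127 genes passed. The counts were 0 members and 337 genes with outlier spots removed after the background fit, 0 and 279 with median centring, 1 and 619 with no sex term, and 0 and 254 without slides 3 and 4. Without slides 3 and 4, KO 1 is the one male KO liver and no female WT liver is left. With sex in the model, genotype there compares KO 1 alone with the males WT 1 and WT 2. The sex effect there compares KO 1 alone with the females KO 2, KO 3 and KO 4. Both counts of that setting therefore rest on 1 liver. Of the 1127 genes that passed, 48.4% were higher in KO livers, against 72.0% with median centring and 58.8% with the later removal of outlier spots. Members numbered 2 with the scanner's own log ratio and 3 with slide as a fixed block. In alternatives added after seeing the data, they numbered 2 without the 2 male KO livers and 3 with a normexp offset of 10. Without the 2 male KO livers the genotypes are compared in females alone, where slide and genotype cannot be told apart. Leaving out each liver gave 0 to 6 members and 590 to 1173 genes, with 0 members without WT 3, and 1 without KO 1 (Rxrg) or KO 4 (Esr1). Without WT 3 the 5 adjusted p-values were 0.0528 to 0.12. For female minus male, 5 members and 2183 genes passed, with 3 and 782 under later removal, 3 and 916 under median centring, 2 and 993 without slides 3 and 4, and 4 to 7 and 1540 to 2504 leaving out each liver. For the interaction no member passed, 0 to 1 leaving out each liver. Median centring moved the median interaction of all genes to 0.16. The cause of these shifts was not tested.

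Within slide 1 the KO minus WT sign of Esr1 (0.34) and Rxrg (0.38) turned, where 1 of 2 KO livers is female and both WT livers are male. For Esrrg, which did not pass, the second probe gave -0.49 and passed. The replicate block gave 1 member and 303 genes for genotype, and 1 and 139 for sex. Replicate numbers do not pair the livers: deviations from group means correlated from -0.43 to 0.53, and 2 of 5 numbers matched their own best. Signal was dimmer on slides 3 and 4, and its part in the values of low probes such as Vdr was not tested.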

Other observations

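Other liver transcription factors and receptor targets differed by sex, and the genes named here were chosen after their values were seen. Of the 30 other hepatic transcription factors, 3 were higher in females and 3 lower. The forkhead gene Foxo4 had a female minus male difference of -1.30 (SE 0.14). Of the 20 CAR and PXR targets, 8 were higher in females and 2 lower, against 4.99% and 6.55% of all genes. They included Cyp2b13 (3.51, SE 0.31), Cyp2b9 (3.50, SE 0.38) and Cyp2b10 (2.78, SE 0.28). The mean of that list, which holds these genes, was 4.74 to 4.92 in females and 3.91 to 4.29 in males, with no overlap. Its median female minus male difference was smaller than those of the named genes, at 0.23.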
